A study of Arabidopsis thaliana with 6 samples.

Results

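In rosette leaves of Arabidopsis thaliana, 73 genes gave far lower signals on 2 arrays of the pho3 line than on 2 wild-type arrays. The members were chosen by these signals: a gene was included if the lower signal of wild-type replicates 2 and 3 was at least 100 and at least 2.5 times the higher signal of pho3 replicates 1 and 2, and if its probe set was annotated with a single nuclear gene. Of 22810 probe sets, 182 met the signal conditions. Among these, 97 are unlisted in the annotation used here and 2 list several genes, which leaves 83 with a single gene. A single plastid gene and 9 genes left out by name (EXPA8, AT2G05540, AT1G30250, AT5G66590, AT1G64380, AT5G62730, AT3G56060, SWEET2 and SWEET16) were then removed. For tests over the whole array, a probe set had to reach the 40th percentile of at least 3 arrays. This held for all 73 members and for 13983 probe sets in all.

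The series holds 3 arrays of pho3 and 3 of its wild-type background, the accession Ws-2. The pho3 plants are a single line, stock N2614, from the Feldmann collection of T-DNA insertions, and the wild type is stock N1601. All plants shared the same growth: 10 days on diluted Murashige and Skoog medium with 1% sucrose, then compost, in days of 16 h light and 8 h dark kept at 23 °C, up to developmental stage 6.0. Total RNA came from rosette leaves. From background knowledge, pho3 is defective in SUC2, the sucrose carrier that loads the phloem, so that sugar and starch build up in its leaves. The probe set of SUC2 is unlisted in the annotation used here, so the insertion was not checked against the labels. The labels do not say whether replicates were separate plants or pools, and the spread between arrays may be partly technical.

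Leaves that make more sugar than they export are known to shift transcription, with sugar acting as a signal. Genes of photosynthesis are among those that sugars repress, while genes of storage and pigment synthesis are among those they induce. The genes below are ordered by role: plastid and photosynthesis, transport, specialised metabolism, redox and cell wall enzymes, and regulators. RefSeq names 67 of the 73 members only by locus, and the roles given for such loci are general knowledge of the gene or of its family. A role is given for 39 members and none for the other 34.

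Both arrays outside the rule stood apart from the arrays sharing their label. Over the 13983 probe sets tested, the scaled median absolute deviation of log2 differences between pho3 replicate 3 and the other arrays was 0.43 for pho3 replicate 1, 0.44 for pho3 replicate 2, 0.35 for wild-type replicate 2 and 0.37 for wild-type replicate 3. The array labelled wild-type replicate 1 was at 0.31 from each of pho3 replicates 1 and 2, and at 0.48 and 0.47 from replicates 2 and 3 of its own label. Pho3 replicates 1 and 2 and wild-type replicates 2 and 3 are called the end arrays below. The 2 arrays outside the rule were nearest to each other, at 0.27. Directions follow the labels as given. Whether the labels of these 2 arrays were exchanged was not tested. Were they exchanged, each difference between them given below would have the opposite sign, and the means and overlaps by label would change. The 6 measured of 7 leaf genes, among them RCA, PRK and LHCB4.1, summed to between 9991 and 16607 on the 6 arrays. The fate genes SPCH and MUTE of the stomatal lineage read at most 5.21 on any array, and its marker FMA between 40.9 and 63.7. The trichome gene TRY read between 4.50 and 37.7, and the root hair gene EXPA7 between 6.06 and 38.0. The markers of xylem, phloem, flower and meristem have no named probe set here.

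On the end arrays, whose signals chose the members, the median log2 difference of the 73 genes was -1.78 (pho3 minus wild type), with single genes between -3.83 and -1.37. These values describe the choice and carry no test. The median signal of the members was 74.3, 84.3 and 258.9 on the 3 pho3 arrays in order of replicate number, compared with 160.2, 352 and 334 on those of the wild type. The middle values are thus those of pho3 replicate 3 and of the array labelled wild-type replicate 1, and the pho3 array of that pair is the higher. Replicates of the end arrays had a median SD over members of 0.16 on the log2 scale. The rule favours genes whose end replicates agree, so this SD is no separate sign of their closeness. Single members differed up to 2.95-fold between the pho3 end arrays (AT3G17640) and 2.40-fold between the wild-type end arrays (AT3G06070). The plot of members by array shows pho3 replicate 3 and wild-type replicate 1 between the end arrays for most single genes.

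**Figure D1:**
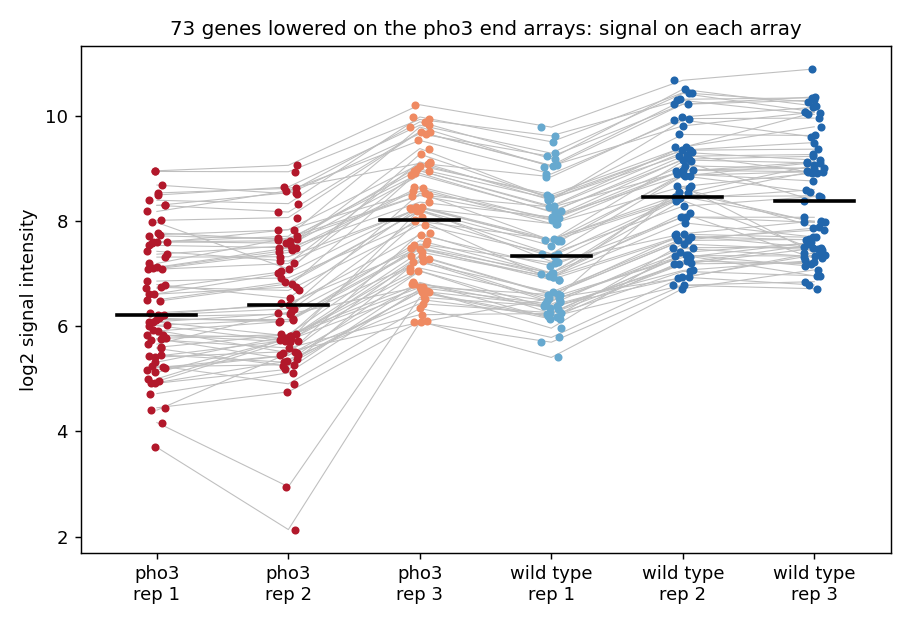
Log2 signal intensity (y axis) of the 73 members on each of the 6 arrays (x axis), with 1 point and 1 grey line per gene and a black bar at the median. The median signal is 258.9 on pho3 replicate 3 and 160.2 on wild-type replicate 1, and both lie between the medians of the end arrays.

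The rule used neither pho3 replicate 3 nor wild-type replicate 1, so the difference between them took no part in choosing the members. That these arrays run across their labels over the whole array was known when the rule was set, and the members are no separate evidence of it. On these arrays 71 of 73 members read higher in pho3, which is 97.3%, where 47.3% of all probe sets tested did. The median log2 difference was 0.59 (pho3 replicate 3 minus wild-type replicate 1), with a middle 50% of genes from 0.43 to 0.70, against -0.02 over all probe sets tested. The share over all probe sets tested pools genes raised and genes lowered on the end arrays. The sign of the members' median is opposite to that on the end arrays. A reversal was also seen for the 139 genes raised on the end arrays by the mirrored rule with the same thresholds. Of these, 137 read lower on pho3 replicate 3 than on wild-type replicate 1, with a median of -0.52. The reversal is thus not particular to the members. The comparison rests on 1 array per group, so no test was possible, and the members are not replicates of each other. Few differences were large: 1 member was at least 2-fold higher on pho3 replicate 3, where the share over all probe sets tested is 0.300%, and 0 were at least 2-fold lower, where that share is 0.658%. Taking all arrays by label, the 3 pho3 arrays lay below all 3 wild-type arrays for 2 members, AT3G62860 and AT3G61550, where 5.81% of all probe sets tested show this.

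**Figure D2:**
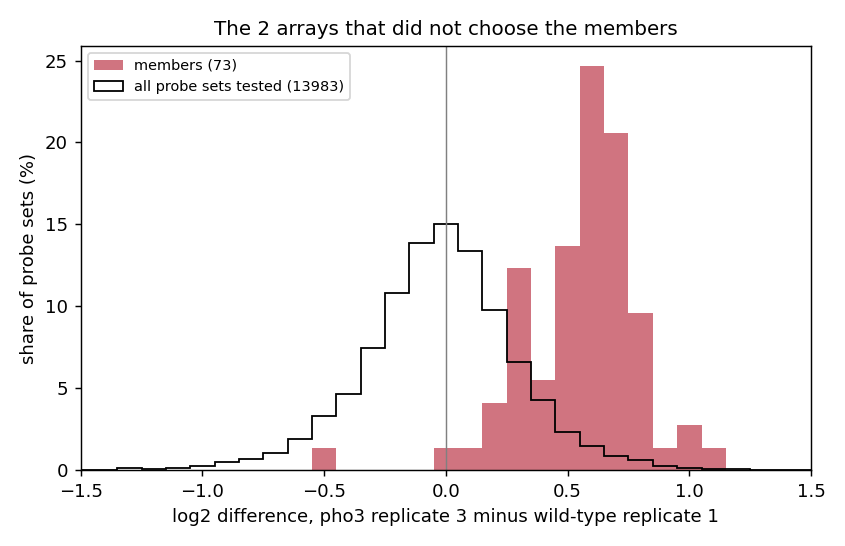
Share of probe sets in percent (y axis) by log2 difference between pho3 replicate 3 and wild-type replicate 1 (x axis, bins of 0.1), for the 73 members (filled) and all 13983 probe sets tested (black outline, of which a few lie beyond the axis). The members centre at 0.59 and all probe sets at -0.02.

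A position was computed for each unused array and gene, with 0 at the mean log2 signal of pho3 replicates 1 and 2 and 1 at that of wild-type replicates 2 and 3. The median position over the members was 0.76 on pho3 replicate 3 (middle 50% of genes from 0.68 to 0.84) and 0.45 on wild-type replicate 1 (from 0.40 to 0.53). Over all probe sets tested these medians were 0.58 and 0.33. For 9994 of the 13983 the position was higher on pho3 replicate 3 than on wild-type replicate 1. The order of the 2 arrays is thus not particular to the members. All 73 members on wild-type replicate 1 and 65 on pho3 replicate 3 lay between both pairs of end arrays, below each wild-type and above each pho3 signal. Over all probe sets tested, 20.2% and 19.9% did so on these arrays. The rule put the end arrays far apart for the members, which leaves more room between them, so nothing is read from these counts. For 7 members pho3 replicate 3 lay within the wild-type end range, and for 1 member above it. For the 139 genes raised on the same end arrays by the mirrored rule, the median position was 0.35 on pho3 replicate 3 and 0.15 on wild-type replicate 1. The difference in position between the lowered and the raised genes was not tested.

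The actin ratio and the leaf genes placed pho3 replicate 3 and wild-type replicate 1 between the end arrays, while the GAPDH and ubiquitin ratios did not. The ratio of the 3-prime to the 5-prime actin control probe set, a sign of degraded RNA or of incomplete labelling where high, was 4.75, 5.24 and 3.46 for pho3 replicates 1 to 3, while the wild-type arrays had 4.23, 2.18 and 2.26. The ratio for GAPDH was 1.47, 1.37 and 1.16 for pho3, against 1.23, 1.27 and 1.34 for wild type, lowest on the 2 arrays outside the rule. That for ubiquitin was 1.68, 1.75 and 1.72 for pho3, against 1.63, 1.78 and 1.80 for wild type. The summed signal of the 6 leaf genes was 9991, 10761 and 14396 for pho3, against 12909, 16607 and 16101 for wild type. The part of RNA quality or of leaf cell content in the members' levels was not tested. In whole leaves, fewer cells of a type and less RNA per cell cannot be told apart.

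Of the 8 plastid and photosynthesis genes, LrgB had the highest ratio between the end groups. It is also called PLGG1 and carries glycolate and glycerate across the plastid envelope in photorespiration. LrgB had signals of 336, 321 and 1005 with pho3 RNA, compared with 725, 1383 and 1222 with wild-type RNA. LPA19, a photosystem II assembly factor, read 76.1, 84.3 and 213 in pho3 leaves, against 141, 269 and 268 in wild-type leaves. NdhN, a subunit of the chloroplast NADH dehydrogenase-like complex, gave 191, 228 and 539 for pho3, while the wild-type arrays had 352, 648 and 658. All 3 were lowest on the pho3 end arrays, and pho3 replicate 3 exceeded wild-type replicate 1 by 0.47, 0.59 and 0.62 on the log2 scale. CHLM is the magnesium protoporphyrin methyltransferase of chlorophyll synthesis. CHLM had signals of 490.4, 488 and 973 with pho3 RNA, compared with 785, 1269 and 1294 with wild-type RNA. The other plastid members were AT3G23700, an S1-domain RNA-binding protein, AT1G12250, a pentapeptide repeat protein of the thylakoid lumen, AT1G51110 of the fibrillin family and the adenylate kinase AT5G35170. AT3G23700 read 218, 199 and 506 in pho3 leaves, against 342, 650.3 and 717 in wild-type leaves. AT1G12250 gave 138, 174 and 400.3 for pho3, while the wild-type arrays had 261, 528 and 510.1. AT5G35170 had signals of 193, 197 and 357 with pho3 RNA, compared with 259, 499.8 and 512 with wild-type RNA. None of the 8 reached the wild-type end range on pho3 replicate 3. All 8 plastid genes were higher on pho3 replicate 3 than on wild-type replicate 1, with a median log2 difference of 0.52. Over all members 71 of 73 were higher, with a median of 0.59, so this is not particular to the role. A second probe set of AT1G51110 that is not a member gave 129, 154 and 267 for pho3, against 206, 330.5 and 334 for wild type, also with pho3 replicate 3 above wild-type replicate 1.

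All 7 members of transporter families read higher on pho3 replicate 3 than on wild-type replicate 1, with a median log2 difference of 0.64. This too follows the whole set, where 71 of 73 members did so with a median of 0.59. AT3G21670 (NPF6.4), of the NRT1/PTR family that holds nitrate transporters, read 314, 371 and 943 in pho3 leaves, against 581, 1447 and 1162 in wild-type leaves. AT1G59740 (NPF4.3), of the same family, gave 38.0, 29.9 and 80.8 for pho3, while the wild-type arrays had 55.1, 122 and 109.9. For both genes pho3 replicate 3 read above wild-type replicate 1 and below the wild-type end arrays. The sugar transporter AT1G19450, of the ERD6-like group of monosaccharide carriers, had signals of 314, 287 and 826 with pho3 RNA, compared with 531, 1249.8 and 1039 with wild-type RNA. For this gene pho3 averaged 476 ± 304 and wild type 939.8 ± 369.6 (SD, n = 3), and the groups by label overlapped, since pho3 replicate 3 read above wild-type replicate 1. The remaining transport members were AT1G12500 of the nucleotide-sugar and phosphate translocator family, AT1G15180 of the MATE efflux family, and AT5G14120 and AT2G16660 of the nodulin-like major facilitators. Their log2 differences between pho3 replicate 3 and wild-type replicate 1 lay between 0.48 and 0.73. AT5G14120 read 359, 400.0 and 902 in pho3 leaves, against 624, 1370.1 and 1075 in wild-type leaves. AT2G16660 gave 250.4, 136 and 495 for pho3, while the wild-type arrays had 310.1, 677 and 883. The pho3 end arrays differed 1.85-fold for AT2G16660 and 1.11-fold for AT5G14120.

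Grouped here as specialised metabolism were 7 genes, with a gene of polyamine synthesis counted among them. Both measured genes of the aliphatic glucosinolate list, of 10 on the list, were members, where 73 of all 13983 probe sets tested were. The list was chosen with earlier results of these data known, so nothing about the pathway is read from this count. BCAT4 transaminates methionine at the start of side-chain elongation of aliphatic glucosinolates, which are defence compounds. BCAT4 had signals of 495, 532 and 1180.1 with pho3 RNA, compared with 879, 1629.7 and 1892 with wild-type RNA. AT2G31790, listed as the glucosyltransferase UGT74C1 of the same pathway, read 213, 227 and 377 in pho3 leaves, against 266, 576 and 599 in wild-type leaves. BCAT4 lay at 0.68 on the position scale on pho3 replicate 3, and AT2G31790 at 0.55. On wild-type replicate 1 they lay at 0.44 and 0.19, so the array labelled wild type was the closer to the pho3 end arrays for both.

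AT1G23390 encodes a Kelch-repeat F-box protein known to mark chalcone synthase, the entry enzyme of flavonoid synthesis, for breakdown. AT1G23390 gave 135, 146 and 556 for pho3, while the wild-type arrays had 336, 965 and 772. Pho3 averaged 279 ± 239.9 and wild type 691 ± 322 (SD, n = 3), and the groups overlapped through pho3 replicate 3. The acyltransferase-family gene AT2G39980 had the largest log2 difference of all members between pho3 replicate 3 and wild-type replicate 1, 1.13. AT2G39980 had signals of 39.8, 56.1 and 259 with pho3 RNA, compared with 118, 393 and 237 with wild-type RNA. AT5G15950, an S-adenosylmethionine decarboxylase of polyamine synthesis, read 139, 179 and 663 in pho3 leaves, against 343, 612 and 483 in wild-type leaves. It is the only member for which pho3 replicate 3 read above both wild-type end arrays, with a position of 1.16.

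The tropinone reductase-like dehydrogenases AT2G29290 and AT2G29310 lie 2 genes apart on chromosome 2. AT2G29290 gave 97.5, 107 and 496 for pho3, while the wild-type arrays had 306, 491 and 556. AT2G29310 had signals of 111, 92.4 and 308 with pho3 RNA, compared with 199.9, 367 and 532 with wild-type RNA. The gene between them, AT2G29300, is not a member and read 11.1, 24.9 and 32.1 for pho3, against 27.7, 79.3 and 54.1 for wild type. All 3 were lowest on a pho3 end array. Because probe sets of such close relatives can share transcripts, the levels of the single genes are uncertain.

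The 3 redox members were the CC-type glutaredoxins AT4G15680 and AT1G06830, small thiol enzymes of a plant-specific class, and the peroxidase AT2G41480 (PRX25). AT4G15680 read 18.0, 7.71 and 93.6 in pho3 leaves, against 82.9, 122 and 163 in wild-type leaves. AT1G06830 gave 64.3, 52.4 and 298 for pho3, while the wild-type arrays had 149.7, 347 and 493. AT2G41480 had signals of 21.8, 26.9 and 68.0 with pho3 RNA, compared with 42.3, 105 and 134 with wild-type RNA. Both pho3 end signals of AT4G15680 and the lower of AT2G41480 lay under the 40th percentile, 26.2 to 28.4 on the 6 arrays, where relative error is largest. AT4G15680 also has close relatives next to it in the genome that its probes may also read. AT1G06830 stayed over that percentile on all arrays and had a log2 difference of 0.99 between pho3 replicate 3 and wild-type replicate 1.

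Cell wall and secreted enzymes gave 3 members. The pectate lyase AT4G24780, of a family that cuts cell wall pectin, read 194, 191 and 529 in pho3 leaves, against 361, 673 and 1066 in wild-type leaves. AT3G48460, a GDSL-type lipase, gave 48.3, 57.3 and 187 for pho3, while the wild-type arrays had 124, 282 and 156. AT5G19120, an aspartyl protease family gene, had signals of 47.6, 37.6 and 155 with pho3 RNA, compared with 89.6, 163 and 124 with wild-type RNA. For AT3G48460 and AT5G19120 pho3 replicate 3 lay within the range of the wild-type end arrays. The 4 genes with the alpha/beta hydrolase fold, AT4G12830, AT1G52510, AT5G19290 and AT3G62860, split on the unused arrays, with 3 higher and AT3G62860 lower on pho3 replicate 3. AT4G12830 read 50.4, 77.0 and 269 in pho3 leaves, against 160.2, 352 and 254 in wild-type leaves. AT1G52510 gave 90.3, 115 and 292 for pho3, while the wild-type arrays had 165, 463 and 373. AT5G19290 had signals of 116, 121 and 254 with pho3 RNA, compared with 201, 351 and 356 with wild-type RNA. On pho3 replicate 3 AT4G12830 lay within the wild-type end range and AT1G52510 and AT5G19290 below it.

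Regulators and genes of protein turnover gave 7 members. SNZ (SCHNARCHZAPFEN) is an AP2-type repressor of flowering. SNZ read 37.0, 43.6 and 91.0 in pho3 leaves, against 73.2, 131 and 124 in wild-type leaves. AT1G76110, of the family with ARID and HMG-box DNA-binding domains, gave 43.8, 39.6 and 99.9 for pho3, while the wild-type arrays had 70.2, 189 and 175. AT4G21870, an HSP20-like chaperone, had signals of 74.0, 80.3 and 369 with pho3 RNA, compared with 198, 559.6 and 334 with wild-type RNA. AT4G21870 on pho3 replicate 3 lay within the wild-type end range, while SNZ and AT1G76110 lay below it. The leucine-rich repeat gene AT3G17640 had the highest ratio of all members between the end groups, 8.08, and read 12.9, 4.38 and 67.1 in pho3 leaves, against 51.7, 109 and 105 in wild-type leaves. Both of its pho3 end signals were under the 40th percentile, so this ratio rests on dim values. The RING finger gene AT4G17245 and the LON-domain gene AT1G75460 were higher on pho3 replicate 3 than on wild-type replicate 1 by 0.73 and 0.43 on the log2 scale.

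**Figure D3:**
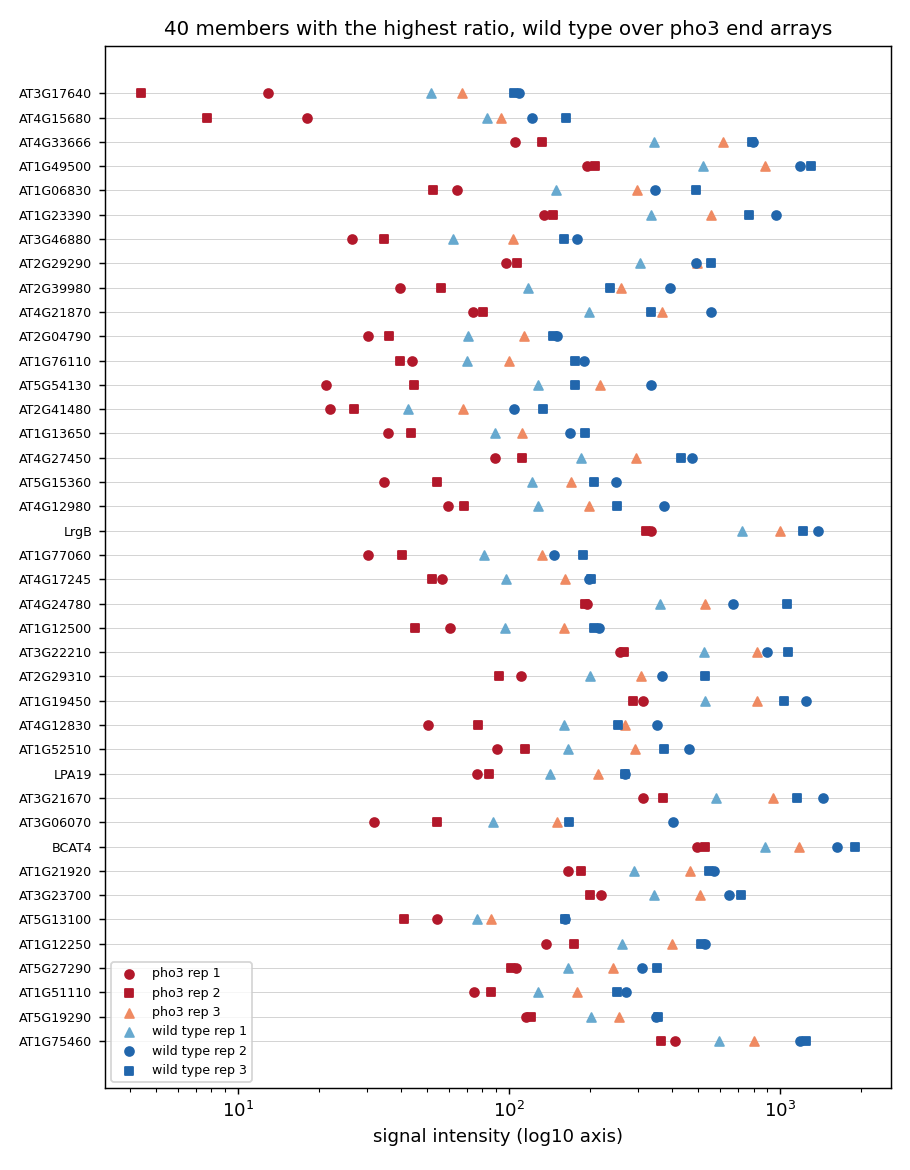
Signal intensity (x axis, log10 scale) of the 40 members with the highest ratio between the end groups (y axis, 1 gene per line, highest ratio at the top), with 1 point per array. Red points are pho3 end arrays and dark blue points wild-type end arrays; the triangles are pho3 replicate 3 (orange) and wild-type replicate 1 (light blue), and the orange triangle lies to the right of the light blue one on every line.

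Only AT3G62860 and AT3G61550 read lower on pho3 replicate 3 than on wild-type replicate 1. AT3G62860 gave 42.5, 45.7 and 67.2 for pho3, while the wild-type arrays had 92.2, 121 and 168. AT3G61550, a RING finger gene of the ATL family, had signals of 53.4, 47.9 and 74.3 with pho3 RNA, compared with 75.5, 145 and 178 with wild-type RNA. The log2 difference was -0.46 for AT3G62860 and -0.02 for AT3G61550, so the second is close to no difference. Next in order came AT4G38690 at 0.15, AT5G13100 and AT4G15680, both at 0.17. At the other end, after AT2G39980, stood AT1G06830, AT5G15950, AT4G21870 and AT4G33666, at 0.99, 0.95, 0.90 and 0.84. AT4G38690, AT5G16030 and AT3G61550 stayed nearest to the pho3 end arrays on pho3 replicate 3, at positions of 0.35, 0.35 and 0.33. AT5G16030 was also near them on wild-type replicate 1, at 0.18.

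**Figure D4:**
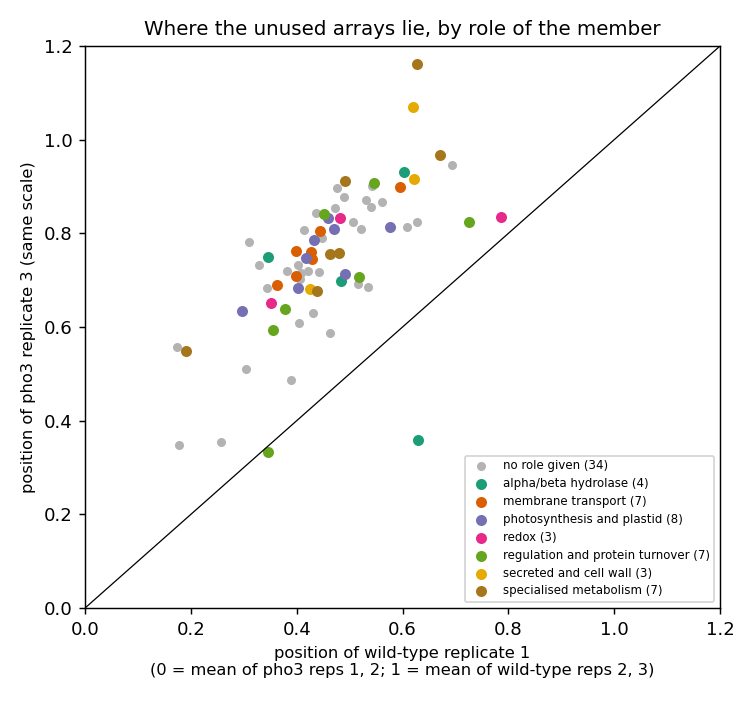
Position of pho3 replicate 3 (y axis) against position of wild-type replicate 1 (x axis) for each of the 73 members, coloured by role, where 0 is the mean log2 signal of pho3 replicates 1 and 2 and 1 that of wild-type replicates 2 and 3. The line marks equal positions, with 71 genes above it and 2, AT3G62860 and AT3G61550, below. Over all 13983 probe sets tested, not drawn here, 9994 have the higher position on pho3 replicate 3.

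Of the 34 members without a role, all 34 read higher on pho3 replicate 3 than on wild-type replicate 1, by 0.15 to 0.84 on the log2 scale with a median of 0.61. In the whole set 71 of 73 members did so, with a median of 0.59. Those with the highest ratio were AT4G33666 and AT1G49500. AT1G49500 read 194, 209 and 880.4 in pho3 leaves, against 521, 1189 and 1309 in wild-type leaves. AT4G33666 gave 105, 132 and 616 for pho3, while the wild-type arrays had 343, 798 and 788. AT3G46880 had signals of 26.3, 34.6 and 104 with pho3 RNA, compared with 62.2, 178 and 159.6 with wild-type RNA. All 3 had pho3 replicate 3 below both wild-type end arrays. The signal of AT3G46880 on pho3 replicate 1 lay under the 40th percentile of that array, 27.7. AT4G27450 read 88.7, 112 and 294 in pho3 leaves, against 184, 475 and 432 in wild-type leaves. AT3G22210 gave 257, 267 and 825 for pho3, while the wild-type arrays had 527, 894 and 1070.4. AT1G77060 had signals of 30.4, 40.4 and 132 with pho3 RNA, compared with 81.0, 147 and 187 with wild-type RNA. AT4G27450, AT3G22210 and AT1G77060 had positions of 0.72, 0.87 and 0.86 on pho3 replicate 3, and of 0.41, 0.53 and 0.54 on wild-type replicate 1. AT4G33666 and the member AT4G33660 are adjacent genes on chromosome 4. AT4G33660 read 97.8, 129 and 307 in pho3 leaves, against 196, 343 and 386 in wild-type leaves. Within this group the wild-type end arrays differed most for AT3G06070, by 2.40-fold. AT3G06070 gave 31.9, 54.4 and 151 for pho3, while the wild-type arrays had 87.5, 402 and 167. AT5G54130 differed 2.11-fold between its pho3 end arrays and read 21.1 on pho3 replicate 1, also under the 40th percentile. A second probe set of it, not a member, gave 25.4, 29.5 and 131 in pho3 against 76.3, 241 and 82.6 in wild type. AT2G07707 is read by a probe set of the shared type, and chromosome 2 is known to hold a copy of mitochondrial DNA, so that a mitochondrial transcript and the nuclear locus cannot be told apart for this gene.

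The members were spread over the nuclear genome. Chromosomes 1, 2, 3, 4 and 5 held 21, 10, 12, 12 and 18 of them, or 28.8%, 13.7%, 16.4%, 16.4% and 24.7%, where the tested probe sets with a single nuclear gene gave 26.2%, 14.8%, 20.3%, 14.6% and 24.1%. Only 2 pairs of members lay within 5 protein-coding genes of each other, AT2G29290 with AT2G29310 and AT4G33660 with AT4G33666. Of 88 tested probe sets for the 2 genes on each side of a member, 7 were at least 2-fold lower on the pho3 end arrays, or 7.95%, where 6.53% of all probe sets tested were. That share is near the background and is not a result about the neighbours.

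Other fixed gene lists held few measured genes. Of 27 cell wall loosening genes 6 were tested, and 1, the expansin EXPA8 left out by name, was at least 2-fold lower on the pho3 end arrays. Of 13 genes repressed by sugar or induced in the dark, AKINBETA1, a subunit of the energy-sensing kinase SnRK1, was the only tested gene. It read 55.8, 70.2 and 96.1 for pho3, against 72.6, 149 and 194 for wild type, with pho3 replicate 3 above wild-type replicate 1 and a ratio of 2.12 that is under the limit of the rule. Of 15 auxin response genes 2 were tested: IAA29 differed by -1.98 and GH3.5 (WES1) by 1.35 on the log2 scale on the end arrays (pho3 minus wild type). IAA29 read 25.7 and 17.7 on the pho3 end arrays, both under the 40th percentile. Its wild-type end arrays read 46.5 and 152, so its value rests on dim and uneven signals. Of 13 clock genes 1 was tested, GI, which read 338, 194 and 161 for pho3, against 215, 87.7 and 236 for wild type, with no separation. The lists for nitrate assimilation, cuticle and wax, gibberellin and brassinosteroid synthesis and the cell cycle had 0 tested genes.

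Values on both sides of the limits lay close together. Just inside the ratio of 2.5 were AT3G06750 at 2.52, AT4G28080 at 2.51 and AT3G09580 at 2.51. Just outside were AT4G24090 at 2.495, AT2G32500 at 2.48 and AT1G73750 at 2.47. At the signal limit, AT3G17640 and AT2G41480 had a lower wild-type end signal of 105 each and AT1G15180 one of 109.8, while AT5G05250, AT3G19550 and AT2G20670 had 90.3, 89.9 and 89.7.

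With all 6 arrays by label, limma called 0 probe sets lower (0%) and 0 higher (0%) in pho3 after Benjamini-Hochberg adjustment over the 13983 tested, and therefore 0 of the 73 members. At an unadjusted p under 0.05 it had 678 lower and 807 higher. Without wild-type replicate 1, 117 probe sets were lower, or 0.837%, and 6 members were among them: AT3G61550, AT5G16030, AT4G38690, AT3G62860, AT5G13100 and AT5G57170. With limma's array weights, 2026 of the 13983 tested were lower and 73 of 73 members were among them. The weights were 0.44 for pho3 replicate 3 and 0.37 for wild-type replicate 1, against 1.09 to 2.20 for the end arrays. That fit therefore leans on the arrays that chose the members. These contrasts hold the arrays that chose the members, so nothing about the members is read from them.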

How the data were processed

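Biotin-labelled RNA of 6 leaf samples was hybridised to Affymetrix arrays, with 3 pho3 and 3 wild-type arrays grouped by their titles. The deposited values are linear signal intensities, 1 per probe set and array. The authors used MAS5, per the submitters' processing notes, and no version or genome build is given in the sources used here. All arrays share a mean of 100.0 once 2% is trimmed from each end, and their median signal lay between 40.4 and 44.2. Precision is limited by the number of arrays. The signals, without a pseudocount or further scaling, were converted to log2, and differences are pho3 minus wild type. Levels on the 2 arrays outside the rule are described without a test, with the share of all probe sets tested beside them. Over all 13983 probe sets tested, limma 3.58.1 (R 4.3.3; lmFit, and eBayes with trend) was run on the 6 arrays with Benjamini-Hochberg adjustment at 0.05. It was also run on simulated data with independent noise for each probe set and array. Those data lack the array-wide differences seen here, so that run cannot show how limma performs on these arrays. The 64 control probe sets were left out. Gene names came from the platform annotation, with 13513 single-gene probe sets of which 13436 matched RefSeq TAIR10.1, from which only names, chromosomes and gene order were used. Tables and figures were made with python 3.11.15, pandas 2.3.3 and matplotlib 3.10.9.

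The members, roles, gene lists and tests were chosen with earlier results of these data known. The 40 members with the highest ratio are all named in the figure of their signals, but some of those without a role are not named in the text. The text also names those nearest the limits, those with the largest difference between the unused arrays and list members. Others were named for their role or another trait after their values were seen. Alternatives were other scalings, thresholds, filters and variance settings, array weights, a replicate block and leaving out arrays. Adding the count of members higher on pho3 replicate 3, and a fit without both unused arrays, was decided after seeing the data.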

Additional observations from a re-analysis of the deposited data

How the results depend on the processing

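The median log2 difference of the members between pho3 replicate 3 and wild-type replicate 1 lay between 0.54 (pseudocount of 16) and 0.69 (ratio of 3), and 71 to 72 of 73 members were higher on pho3 replicate 3 after quantile normalization, median centring or a pseudocount of 16. With a ratio of 3 it was 32 of 32. Median centring gave 3 members at least 2-fold higher on that array. Under these 4 settings the median positions moved by less than the median SD between end replicates of the members, 0.09 as a position. That SD comes from values the rule used. The number of members was 163 with a ratio of 2, 32 with a ratio of 3, and 46 with a lowest wild-type signal of 200. It ranged from 102 to 125 with each of the 4 end arrays left out in turn, as each such rule is looser, and reached 114 without pho3 replicate 2, 125 without wild-type replicate 2 and 119 without wild-type replicate 3. All 73 members are in each of these 4 sets by construction, so this is no sign of stability. Quantile normalization gave 80 members, which held 71 of the 73, and median centring gave 85, which held all 73. Limma over all probe sets called 0 higher and 0 lower in 7 other settings: quantile normalization, median centring, a pseudocount of 16, no filter, a filter on the mean, eBayes without trend and the replicate block. Array weights, which were lowest for the 2 arrays outside the rule, gave 2237 higher and 2026 lower. Leaving out each array in turn gave 0 to 644 higher and 0 to 117 lower, with counts above 0 only without wild-type replicate 1. Without both that array and pho3 replicate 3, a fit chosen after seeing the data, 2547 were higher and 2305 lower; it keeps only the arrays that chose the members. Deviations from the group means correlated at 0.39, -0.27 and 0.43 for replicate numbers 1, 2 and 3. For unlike numbers they ran from -0.62 to 0.52. As pho3 replicate 3 and wild-type replicate 1 lie apart from their labels, these values cannot decide whether replicate numbers pair the samples. With the replicate block, limma called 0 probe sets in each direction. At an unadjusted p under 0.05 limma had 1639 higher and 1401 lower with the block, against 807 and 678 without it. Dim signals limit AT3G17640 and AT4G15680 most.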
